A study of Homo sapiens with 11 samples.

Results

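The sites described here are CTCF sites called in ORC2 deletion cells and again in ORC2 rescue cells, but not in WT cells. CTCF is an architectural zinc finger protein that binds DNA at a long, well-known motif and halts cohesin there, which sets the borders of chromatin loops. ORC2 is a subunit of the origin recognition complex, which loads the replicative helicase onto DNA before S phase. CTCF occupancy was measured by CUT&RUN, in which an antibody guides a nuclease to the bound protein so that the DNA around it is cut out and sequenced. The material was HCT116 p53-/-, a human colorectal cancer line without p53, and every group carried this p53 loss. The ORC2 deletion cells were the clone ORC2B2, made with CRISPR/Cas9 in that line. The rescue cells were obtained by clonal selection after ORC2 with its untranslated regions had been supplied on the plasmid pLHCXORC2. The WT cells were the HCT116 p53-/- line itself, so WT here means unedited at ORC2 and not at p53. Each genotype had 2 CTCF libraries, and IgG libraries served as background, with 2 in deletion, 1 in rescue and 2 in WT.

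The sites were chosen by their positions in the deposited summit lists: a deletion summit counted if a rescue summit lay within 500 bp and no WT summit did. Of 31112 deletion summits, 4545 met this rule, which is 14.6% (95% Wilson interval 14.2 to 15). The rule set this number, so it is a description and not a finding. Another 14099 deletion summits also had a summit in both rescue and WT, 9512 had one in neither, and 2956 had one in WT but not in rescue. Each genotype is represented by 1 list that names no replicate, and the depth of the libraries is unknown, so all intervals below cover counting error only and no difference between genotypes has a replicate check. The peak names of the rescue list imply that rescue cells were made from ORC2 deletion cells, which the sample labels do not state. Deletion and rescue cells both went through clonal selection after the WT line. A link of these sites to ORC2 and one to the selected clones therefore cannot be told apart.

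Seen from the rescue list, 4542 of 20810 summits, 21.8% (21.3 to 22.4), had a deletion summit and no WT summit within 500 bp. They made up 72.3% (71.2 to 73.4) of the 6281 rescue summits without a WT summit. With the 19044 highest-scoring summits taken from each list, 2428 summits were in deletion and rescue but not WT, 1945 in deletion and WT but not rescue, and 1725 in rescue and WT but not deletion. The pair of deletion and rescue therefore shared more summits against the remaining list than either of them shared with WT, although all 3 counts come from the same lists and were not tested against each other. In the authors' deposited lists, 69 of the 4545 sites lay in 1 of the 9603 up regions and 0 in the 364 down regions, against 9477 of the 9512 deletion-only summits and 57 of all other deletion summits in up regions. The up regions thus nearly match the deletion-only class, which the rule leaves out by requiring a rescue summit, so the rule bears on this count and nothing is read from it.

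Where a site fell in a RefSeq promoter window (GRCh38.p14, 250 bases before to 50 after a gene start), the DNA under it could be read. Such windows held 139 of the sites, and 27 of them carried a CTCF core word within 150 bp of the summit. The other 112 did not, among them the highest-ranked, at EXD1, RGMB and KCNN3. The word searched was CCNNNAGNNGGC, on both strands. The 7 shown are among the 8 highest-ranked of the 27 by the weaker of their ranks in the deletion and rescue lists. Each is given on the strand of the match, with the core in capitals and 9 flanking bases on either side in lower case. They were picked for the match and show only what the DNA at such matches looks like.
LOC105372683: ccatttaagCCAGAAGGGGGCagcgttttc
LINGO1-AS2: tagcctcctCCAGCAGAGGGCaccctggga
LINC00398: tgagagctgCCACTAGATGGCgcgtctgcc
CENPF: tggttgagaCCAGAAGCGGGCgaattgggc
NIPSNAP1: atcctgaggCCCAGAGTGGGCaaagggctt
FCHO2: ctgcggcagCCGCTAGGTGGCgcatgcgcc
LOC105369808: agctcaaggCCAGCAGATGGCgcgtggcgt

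At FCHO2, which helps start clathrin-coated pits, the match lay at chr5:72955938-72955967 on the plus strand. The −log10 q there (the peak caller's score, larger where the call is more certain) was 5.62 in deletion and 4.69 in rescue, and no WT summit was closer than 127235 bp. At LINC00398, a long non-coding RNA gene, the match lay at chr13:30803055-30803084 on the minus strand, with 10.1 in deletion and 6.05 in rescue. At CENPF, a kinetochore protein, the match at chr1:214603184-214603213 on the plus strand was centred 11.5 bp from the summit, the closest of the 7, with 6.83 in deletion and 6.78 in rescue. The remaining matches lay at chr20:56974563-56974592 (minus), chr15:77659886-77659915 (plus), chr22:29581283-29581312 (minus) and chr12:65556887-65556916 (plus).

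Over the whole window (chosen after seeing the data), the core word was found more often at these sites than in promoter windows at large. In the 300 bases it was found at 38 of the 139 sites, 27.3% (20.6 to 35.3). Counted by window, it was found in 10.6% (10.3 to 10.9) of all 34961 windows. Of windows without any deletion summit, 9.93% (9.62 to 10.3) held it. A site can fall in more than 1 window, so the share of sites and the shares of windows differ in unit. The windows of the sites had a median GC content of 62.7%, against 58.7% over all windows. Whether this contributes to the higher share was not tested. The centre of the word lay a median of 97.0 bp from the summit at the 38 sites. The medians were 93.5 bp for deletion-only summits, 96.5 bp for those shared with WT but not rescue and 103 bp for those of all 3 lists. Within 50 bp of the summit, 10 of the 139 sites had the word, 7.19% (3.95 to 12.7). Within 150 bp of the summit the shares were 19.4% (13.7 to 26.8) for the sites, 13.5% (10.8 to 16.8) for deletion-only summits, 18.0% (13.0 to 24.3) for summits shared with WT but not rescue and 29.7% (25.8 to 33.8) for summits of all 3 lists. The sites minus summits of all 3 lists came to -10.2 percentage points (Newcombe 95% interval -17.3 to -1.93), and over the whole window to -10.3 points (-18.3 to -1.38). Against summits of all 3 lists of like deletion value the difference within 150 bp was -6.77 points (-15.8 to 2.25), which includes 0. The sites minus deletion-only summits came to 5.93 points (-0.649 to 13.8), to 2.51 points (-5.58 to 10.6) at like deletion value, and over the whole window to 10.9 points (3.29 to 19.4), of which only the last interval is off 0. The sites minus summits shared with WT but not rescue came to 1.45 points (-7.06 to 10.3), and over the whole window to 3.74 points (-5.79 to 13.5), both with 0 in the interval. Median GC was 63.0% in the windows of deletion-only summits and of summits of all 3 lists, and 62.7% in those of summits shared with WT but not rescue. Within the 139, sites with the word had median values of 6.30 in deletion and 3.92 in rescue, and those without it 6.69 in deletion and 4.46 in rescue.

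The sites were of intermediate strength in the deletion list and ranked lower in the rescue list. Each summit carries the authors' −log10 q, which is not scaled between lists and serves only to rank summits within one. Peak calling and the rule share this measure, so the order of the classes by value is a description and not a finding. In the deletion list the median of the sites was 7.14, with quartiles of 4.94 and 10.3, against 4.36 for deletion-only summits, 6.96 for summits shared with WT but not rescue, and 13.3 for those of all 3 lists. In the rescue list the matched summits had a median of 4.73 (quartiles 3.32 and 6.74), against 3.18 for rescue-only summits, 4.52 for those shared with WT but not deletion, and 8.16 for those of all 3 lists. Ranked from the top, the median site stood at the 55.9th percentile of the deletion list and at the 68.8th of the rescue list. Summits of all 3 lists also ranked lower in rescue, with median percentiles of 26.1 in the deletion list and 37.6 in the rescue list. The lower rank in the rescue list was therefore not particular to the sites. Both values were above the median of their list for 779 sites and below it for 2215.

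**Figure D1:**
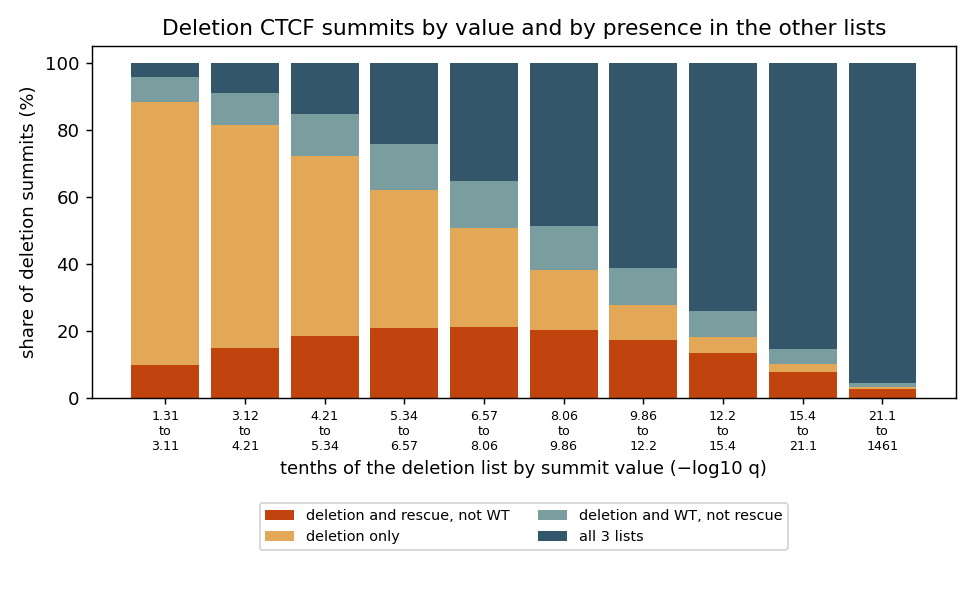
Share of deletion summits (%) in each of 10 equal classes of the deletion list by summit value (−log10 q, weakest at the left), split by presence in the rescue and WT lists. Sites in deletion and rescue but not WT take 9.87% of the weakest class, 21.0% of the fifth and 2.60% of the strongest.

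The share of sites was highest in the middle of the deletion list, cut into 10 equal classes by value. This too is a description, since the calls behind the rule rest on such values. It was 9.87% in the weakest class, 21.0% in the fifth (values of 6.57 to 8.06) and 2.60% in the strongest (21.1 and above). Among deletion summits that had a rescue summit at all, the share lacking a WT summit fell with strength, with 69.8% of 440 in the weakest class and 2.65% of 3057 in the strongest. The 81 sites in the strongest class are thus the exceptions, since 95.6% of that class was called in all 3 genotypes. The plot of classes by value shows both trends.

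**Figure D2:**
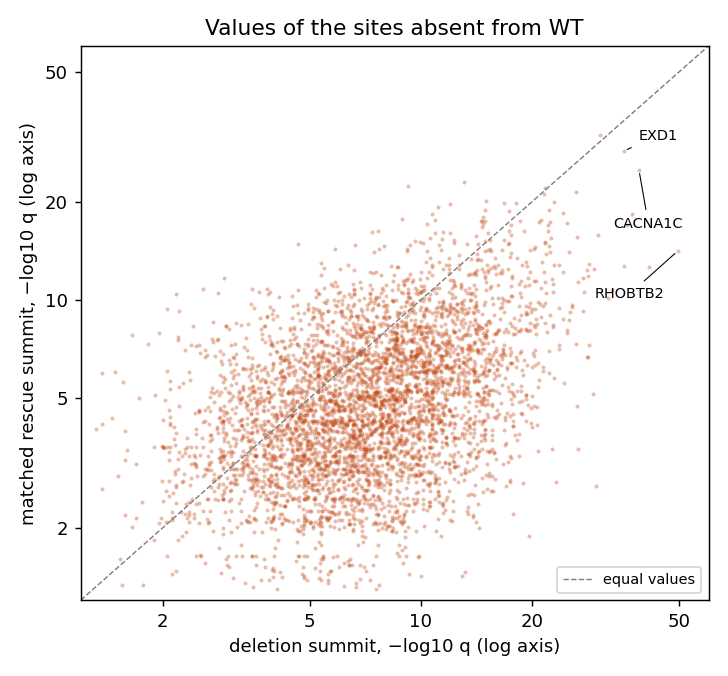
Summit value (−log10 q) of each of the 4545 sites in the deletion list (x axis) and of its matched summit in the rescue list (y axis), both on log axes, with a dashed line of equal values. Most points lie below the line, 3463 of 4545, and EXD1 and CACNA1C stand at the upper right.

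The deletion value was higher than the rescue value at 3463 sites and lower at 1082, and the median ratio of deletion to rescue value was 1.49. The medians of the whole lists also differ, 8.06 in deletion and 6.58 in rescue, so this ratio does not compare occupancy. Across the 4545 sites the values of the 2 lists had a Spearman correlation of 0.391, against 0.654 across the 14099 summits of all 3 lists, which span a wider range of values. Both are given as descriptions, since sites of 1 list share its libraries and depth.

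The distance between a site and its rescue summit was used by the rule, as it was for summits of all 3 lists, and is given as a description. Its median was 71.0 bp (quartiles 30 and 144), against 54.0 bp (22.0 and 114) for summits of all 3 lists. Within 100 bp lay 62.2% of the sites (60.8 to 63.6) and 71.2% (70.4 to 71.9) of the summits of all 3 lists. Near the limit, 48 sites had their rescue summit more than 400 bp away, with a median deletion value of 5.44, and 29 summits missed the rule with one just past 500 and up to 600 bp away, with a median of 4.35. The 4545 sites matched 4536 rescue summits, 9 of which were matched more than once, and joining sites within 500 bp of each other left 4541.

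**Figure D3:**
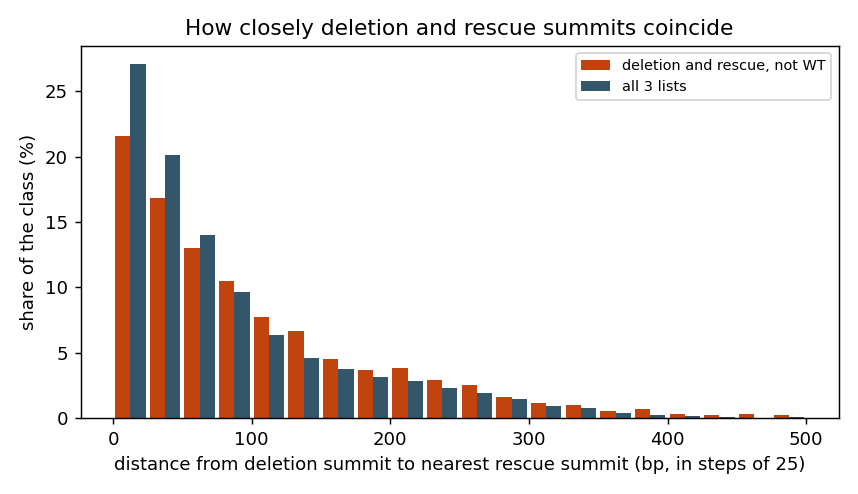
Distance (bp, in steps of 25) between a deletion summit and its nearest rescue summit, as a share (%) of the 4545 sites absent from WT and of the 14099 summits in all 3 lists. The medians are 71.0 bp for the sites and 54.0 bp for the summits in all 3 lists, both cut at 500 bp by the rule.

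The distance to the nearest WT summit was also used by the rule. Its median was 29786 bp, with quartiles of 10729 and 75034 bp, against 33521 bp for deletion-only summits, which lack a WT summit by the same limit. Of the sites, 3947 had no WT summit within 5 kb. For 822 sites none lay within 100 kb. Another 96 had one within 1000 bp. At the limit itself, the 29 sites with a WT summit within 600 bp had a median deletion value of 8.92, and the 43 summits left out because of a WT summit more than 400 and up to 500 bp away had 8.57. The lack of a WT summit says only that none was called in that list, whose lowest value was 1.308.

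The highest-ranked sites lay at genes of many kinds. The site 137 bp outside EXD1 (chromosome 15, 41230894), known in mouse for its part in piRNA production, had a −log10 q of 35.4 in deletion and 28.6 in rescue, and both lists placed the summit on the same base. The nearest WT summit was 45807 bp away. Inside CACNA1C, the pore-forming subunit of an L-type calcium channel, the summit at 2360889 of chromosome 12 had 38.9 in deletion and 25 in rescue, 7 bp apart, with WT no closer than 34658 bp. RHOBTB2 held the highest deletion value of all the sites, 49.5, with 14.1 in rescue (chromosome 8, 23019548). These 3 stand at the edge of the cloud in the plot of deletion and rescue values.

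Several of the 25 genes named by rank encode ion channels or signalling proteins. KCNG1, a modifying subunit of voltage-gated potassium channels, had a site 10435 bp away with 22.9 in deletion and 20 in rescue. HTR3A, a serotonin-gated cation channel, had one 4043 bp away with 26.5 in deletion and 15.6 in rescue. CSK, the kinase that holds Src family kinases in check, had a site 224 bp outside with 20.9 in deletion and 17.3 in rescue. RGMB, a co-receptor for BMP signalling, had one 192 bp outside with 21.7 in deletion and 15 in rescue, on the same base in both lists. Sites inside SIK3, a salt-inducible kinase, and FSTL4, a follistatin-like protein, had 21.6 and 21.5 in deletion and 14.9 and 21.1 in rescue. Below the first few sites, the values of successive genes differed little.

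The next genes have roles in lipids, mitochondria, glycans and the spindle. ENPP7, the alkaline sphingomyelinase of the intestine, held a site with 22.2 in deletion and 18.8 in rescue. PCYT1A, which makes the activated choline for phosphatidylcholine, held one with 19 in deletion and 16.3 in rescue, 1 bp apart. POLG2, the accessory subunit of the mitochondrial DNA polymerase, held a site with 22.5 in deletion and 15.5 in rescue that had a WT summit 1022 bp away. ATAD1, which pulls mislocalised proteins out of the mitochondrial outer membrane, held one with 22.1 in deletion and 16.2 in rescue. B3GNT6, an enzyme of mucin-type glycans in the colon, had a site 5191 bp away with 18.5 in deletion and 17.4 in rescue, and a WT summit at 511 bp put it just inside the rule. TACC3, a spindle protein, had a site 3511 bp away with 22.3 in deletion and 17.3 in rescue.

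Of the rest of the 25, IGF2BP3, an oncofetal RNA-binding protein, held a site with 24.8 in deletion and 17.2 in rescue and no WT summit within 80169 bp. ZC4H2 and S100A2, a calcium-binding protein, had 21.7 and 19.7 in deletion and 22.0 and 14.2 in rescue. TRIL, an accessory protein of Toll-like receptor signalling, and ZDHHC22, of a palmitoyltransferase family, had WT summits at 599 and 566 bp, close to the limit. At ZDHHC22 the rescue summit, at 77151699 of chromosome 14, lay 487 bp from the deletion summit. The WT summit there, at 77151620, lay closer to that rescue summit than the deletion summit did. CCDC194, THSD4, MEGF6 and FAM81A had deletion values of 20.4 to 26.3. ORC2 itself was the remaining gene and is described below with the IgG summits near it. Another 4 sites of this rank had no protein-coding gene within 50 kb. The first of them by the weaker of both ranks lay at 23016323 of chromosome 17, with 30.6 in deletion and 32.1 in rescue. A deletion IgG summit lay 12 bp from it. The one at 119479855 of chromosome 11 had the higher deletion value, 37.3, and 18.3 in rescue.

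With a reach of 50 kb, 3840 sites were assigned to 3211 protein-coding genes, and 2680 of these had 1 site only. KAZN, which encodes a binding partner of desmosome proteins, and THSD4, a microfibril-associated protein, had the most assigned inside them, 6 sites each. KAZN spans 1225 kb and held 19 deletion, 14 rescue and 7 WT summits. Its 6 sites had deletion values of 1.83 to 17.2 and rescue values of 2.90 to 12.4. THSD4 spans 686 kb and held 20 deletion, 13 rescue and 9 WT summits, and its 6 sites had values of 6.70 to 21.1 in deletion and 5.69 to 17.6 in rescue. Genes with 4 assigned sites inside them were ABTB3, CFAP77, GPHN (the inhibitory synapse scaffold gephyrin), GRIN2B (an NMDA receptor subunit), MYO18A and PLCB4 (a phospholipase C), and the span of GPHN held 6 when sites assigned to overlapping genes are counted. The strongest site in ABTB3 had 35.5 in deletion and 12.7 in rescue, while the other 3 had deletion values of 3.41 to 5.98. These 8 genes span 109 to 1227 kb.

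Gene position was not used by the rule and could be compared between classes. The sites lay near gene ends less often than each of the other classes of deletion summit. A gene end here is either boundary of a gene, so gene starts are included. Within 1 kb of a gene end lay 15.4% of the sites (14.4 to 16.5), against 19.6% of deletion-only summits, 22.3% of those shared with WT but not rescue, and 18.1% of those of all 3 lists. The differences were -4.17 percentage points (-5.48 to -2.84), -6.88 points (-8.73 to -5.06) and -2.67 points (-3.88 to -1.42), and no interval includes 0. Against summits of like deletion value they were -2.56, -6.80 and -2.76 points, again with intervals off 0.

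The same order held at gene starts, which the promoter table gives with their strand for all chromosomes used except 8. Gene starts also count among the gene ends above, so this is not a separate result. Starts, the whole promoter window and GC content were taken up after seeing the data. Within 1 kb of a start lay 8.65% of the sites (7.85 to 9.52), against 13.6% of deletion-only summits, 15.1% of those shared with WT but not rescue and 10.7% of those of all 3 lists. The largest of these differences was that from summits shared with WT but not rescue, -6.50 points (-8.08 to -4.95). Both classes that lack 1 other genotype had nearly the same deletion values, with medians of 7.14 for the sites and 6.96 for the summits shared with WT but not rescue. Near gene ends and gene starts this class differed most from the sites of the 3 compared. The plot of gene context sets the 4 classes side by side.

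**Figure D4:**
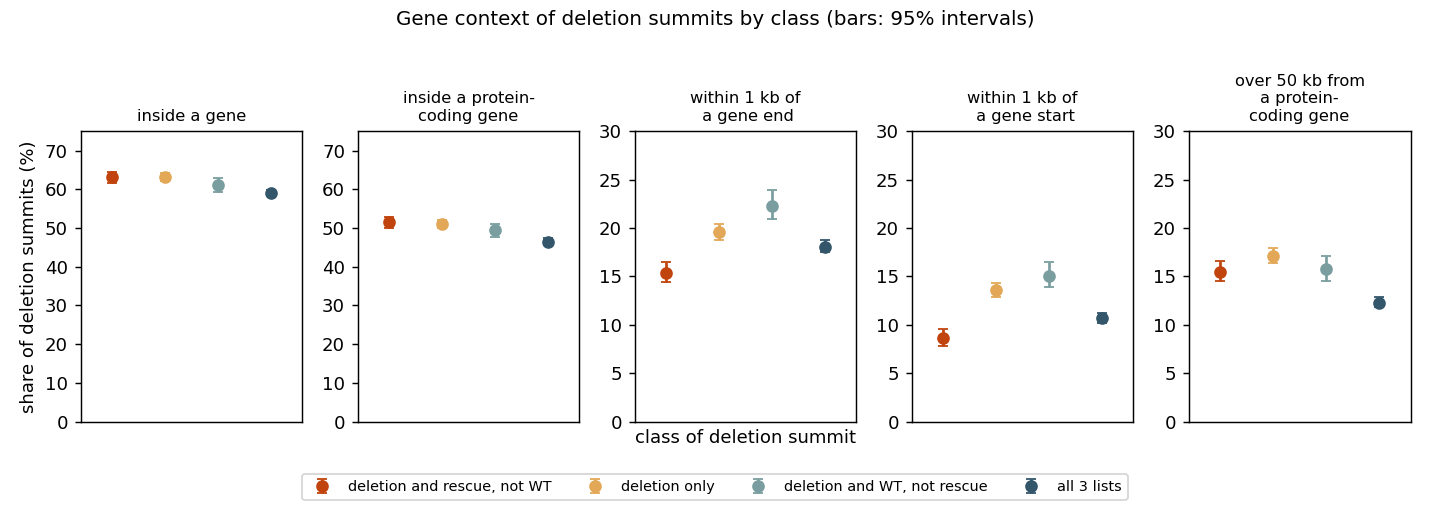
Share of deletion summits (%) inside a gene, inside a protein-coding gene, within 1 kb of a gene end, within 1 kb of a gene start, and over 50 kb from a protein-coding gene, for the 4 classes of deletion summit, with 95% Wilson intervals. The sites in deletion and rescue but not WT are lowest near gene ends (15.4%) and gene starts (8.65%). A gene end is either boundary of a gene, so the gene ends include the starts.

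Inside genes the sites were more frequent than summits of all 3 lists. Of the sites, 63.2% (61.8 to 64.6) lay inside a gene and 51.6% (50.1 to 53) inside a protein-coding one, against 59.1% and 46.5% of the summits of all 3 lists. These differences were 4.09 points (2.47 to 5.70) and 5.02 points (3.35 to 6.69). Of deletion-only summits 63.3% and 51.0% did, and the sites minus these came to -0.131 points (-1.84 to 1.57) and 0.574 points (-1.19 to 2.34), which include 0. Of summits shared with WT but not rescue 61.1% and 49.4% did, and the sites minus these came to 2.04 points (-0.204 to 4.29) and 2.18 points (-0.133 to 4.49), which include 0 as well. At like deletion value the protein-coding difference was 2.33 points (0.0134 to 4.64), just off 0. Over 50 kb from any protein-coding gene lay 15.5% of the sites (14.5 to 16.6), which was 3.18 points (2.02 to 4.39) above the summits of all 3 lists and -1.64 points (-2.92 to -0.322) from deletion-only summits. From summits shared with WT but not rescue it was -0.253 points (-1.95 to 1.41). Against the summits of all 3 lists of like deletion value the difference was 1.00 point (-0.422 to 2.42).

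The sites were spread over all 23 chromosomes of the list. Their share of deletion summits ran between 12.5% on chromosome 6 and 17.7% on X, around the 14.6% of the whole list. On 3 chromosomes the interval did not include that share: chromosome 6 (11 to 14.3), chromosome 22 with 17.6% (14.8 to 20.9) and X (14.9 to 20.9). At a matching distance of 100 bp none did. On chromosome 6, the first 30 Mb held 11 sites among 189 deletion summits, 5.82% (3.28 to 10.1), and the rest of the chromosome 13.5% (11.8 to 15.4). That segment was singled out after its values had been seen. Another site lay within 10 kb of 6.29% of the sites (5.62 to 7.04), against 10.5% of the 9512 deletion-only summits, 4.16% (3.50 to 4.94) of the 2956 shared with WT but not rescue and 21.6% of the 14099 of all 3 lists, each counted within its own class.

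**Figure D5:**
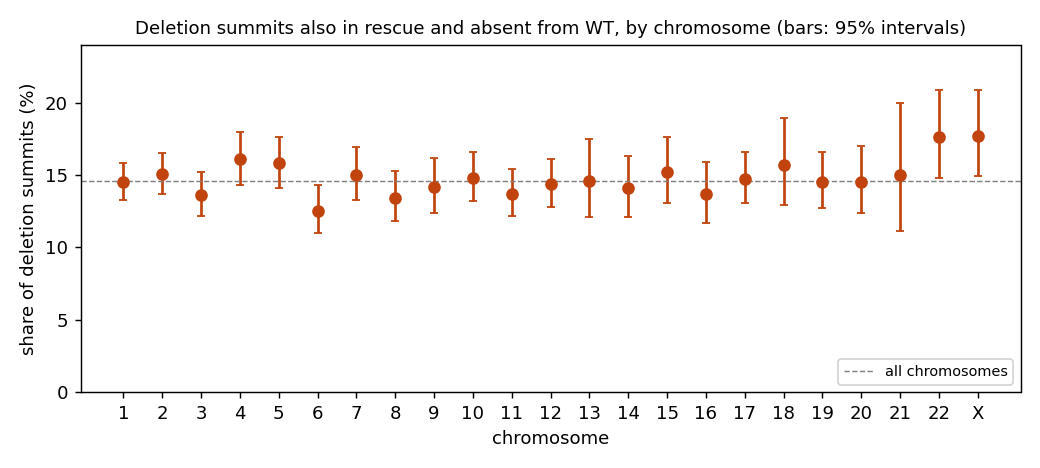
Share of deletion summits (%) that were also in rescue and absent from WT, per chromosome, with 95% Wilson intervals and a dashed line at the share over all chromosomes, 14.6%. Chromosome 6 lies below the line and chromosomes 22 and X above it by their intervals.

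Gene lists were described by how many of the deletion summits assigned to their genes were such sites, beside 14.5% over all protein-coding genes. Among replication licensing and firing genes, the group of ORC2, 3 of 30 summits were, 2 of them at ORC2 and 1 inside MCM5, a subunit of the replicative helicase (11.7 in deletion, 6.18 in rescue). ORC4 and ORC5 had 4 and 2 deletion summits and none of these sites. Among cohesin, condensin and architecture genes 5 of 42 were, at CDCA5 (sororin), PDS5A, SMC3, PDS5B and 1 other gene. The site inside CDCA5 had 10.3 in deletion and 9.42 in rescue, and that near SMC3, a core cohesin subunit, 9.72 in deletion and 5.52 in rescue. RAD21 and MYC had deletion summits, 4 and 2, but none of these sites. CTCF itself had no deletion summit assigned to it.

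For chromatin, cell cycle, DNA damage, p53 and WNT genes the interval of the share included that of all genes. Polycomb, heterochromatin and DNA methylation genes had 10 of 62, led by CBX7 (13.5 in deletion, 9.43 in rescue) and EZH1 (10.1 in deletion, 6.97 in rescue). Cell cycle genes had 5 of 38, among them CCND2, a D-type cyclin (17.6 in deletion, 11.8 in rescue), and E2F2 (20.7 in deletion, 6.38 in rescue). DNA damage response genes had 3 of 24, at PARP1 and RAD52. The p53 pathway and apoptosis genes had 5 of 33, led by APAF1, which forms the apoptosome (11.7 in deletion, 6.78 in rescue), and CASP8 (5.85 in deletion, 11.3 in rescue). Another site at CASP8 had 6.32 in deletion and 3.28 in rescue. WNT pathway genes had 11 of 92, among them DKK2, a secreted WNT modulator, with 22.2 in deletion and 6.97 in rescue.

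The calcium and potassium channel, solute carrier and cytochrome P450 genes held some of the strongest sites, and the interval of each list's share included 14.5%. Voltage-gated calcium channel genes had 10 of 68, at CACNA1C, CACNB2, CACNA1S (24.8 in deletion, 8.08 in rescue) and CACNA1A among 7 genes. Potassium channel genes had 22 of 195, with KCNN3 (18.2 in deletion, 13.4 in rescue) and KCNA5 (23.7 in deletion, 9.46 in rescue). Solute carriers had 100 of 630, at 84 genes, led by SLC6A16 (25.1 in deletion, 14.0 in rescue). Cytochrome P450 genes had 7 of 54, at 7 genes, and CYP2J2, an epoxygenase of arachidonic acid, had the second highest deletion value named here, 41.3, with 12.6 in rescue.

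The interval of 3 of the 22 lists did not include 14.5%, and all 3 were lower. Intestinal epithelium genes, of the lineage of this line, had 1 of 47 (2.13%, 0.377 to 11.1), 1237 bp from EPHB2, a receptor of crypt cells, with 4.89 in deletion and 3.46 in rescue. Zinc finger genes of the ZNF family had 37 of 359 (10.3%, 7.57 to 13.9), led by ZNF516 and ZNF280D. Olfactory receptor genes had 6 of 94 (6.38%, 2.96 to 13.2), led by OR7E24. With summits matched at 100 bp no list stood off. Of genes of other cell types, neuronal genes had 14 of 77, with GRIN2B (21.9 in deletion, 7.94 in rescue) and NEFM, mesenchymal genes 6 of 37, with COL1A1 and COL1A2, and haematopoietic genes 2 of 18. Imprinted genes had 8 of 35, led by GNAS (17.4 in deletion, 6.42 in rescue), clustered protocadherins 2 of 9, HOX genes 1 of 23 at HOXC4, histone genes 4 of 22 and ribosomal protein genes 4 of 59.

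ORC2, the gene targeted in the deletion clone and carried by the rescue plasmid, held 2 of the sites. ORC2 spans 200908977 to 200963660 on chromosome 2 (hg38). At 200957984 the deletion value was 24.2, and the rescue summit at 200957858 had 18.4. IgG summits, which need no CTCF antibody, lay beside it, at 200958215 in deletion (16.3) and at 200958139 in rescue (9.57), while WT cells had no IgG summit at ORC2. The strongest IgG summit there, 60.7 in deletion at 200956365, lay outside 1 kb of the site. The other site, at 200944924, had 5.41 in deletion and 4.30 in rescue and lay 11441 bp from the nearest IgG summit. Over all 4545 sites, 7 lay within 1 kb of an IgG summit of any genotype, against 29 of all 31112 deletion summits. Leaving out every summit near IgG left 4538 sites.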

How the data were processed

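CUT&RUN with a CTCF antibody or IgG was done on 11 libraries in 6 groups. Per the submitters' processing notes the tools were FastQC 0.11.5, Bowtie2 2.2.9, SAMtools 1.12 and MACS2, and the build was hg38. How peaks were called, whether duplicates were removed and whether replicates were merged is not given in the sources used here. In the summit files that the authors deposited, every peak has a position and a value, read as −log10 q because the lowest in the 3 CTCF lists are 1.304 to 1.308, just past a q of 0.05. Their up and down files hold regions without a measured value. Since a genotype has a single CTCF file, it was treated as merged replicates. Depth is unknown.

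Positions were counted from 1, and each summit was paired with the closest one of every other list. Shares have 95% Wilson intervals and differences of shares Newcombe intervals. Differences at like deletion value weight the comparison class to the spread of the sites over 10 classes of that value. Gene ends, meaning both boundaries of each gene, came from a RefSeq table (GRCh38.p14, 58419 genes, 679 entries on other scaffolds left out). Gene starts and sequence came from 34961 RefSeq promoter windows. The planned motif test was limited to summits in these windows, and 1 match is not reported here. A site belongs to the protein-coding gene that holds it, or to the nearest within 50 kb. Named genes are the first 25 by the weaker of both ranks, those with most sites, up to 4 per gene list, and a panel of ORC1 to ORC6, CTCF, RAD21, MYC and CDH1. ORC1, ORC3 and ORC6 had no deletion summit assigned, and CDH1 had 1, which was no such site. The sites and lists were chosen with earlier results of these data known. Matching was tested on simulated data, where it returned 6010 of 6010 sites made. The simulated sites lay 50 kb apart with partners placed within 500 bp, so full recovery was built in and only the code was checked. Summits close to each other were not simulated. The tools were pandas 2.3.3 and NumPy 2.4.6, with SciPy 1.17.1 and matplotlib 3.10.9, under Python 3.11.15.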

Additional observations from a re-analysis of the deposited data

Results flagged for a closer look

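IgG summits are signal outside the CTCF measurement, and some lay within 1 kb of a site described above where the WT IgG list had none. At ORC2 (chromosome 2, site at 200957984) the IgG values were 16.3 in deletion and 9.57 in rescue. At 23016323 on chromosome 17 the deletion IgG value was 47.7. On chromosome 16, the site at 34583120 had IgG summits of 11.9 in deletion and 5.15 in rescue, the site at 34572667 one of 8.79 in deletion, and the site at 34571572 one of 8.07 in deletion. At 42079685 on chromosome 10 the IgG values were 5.26 in deletion and 3.73 in rescue. All are −log10 q from lists that are not scaled to each other, and rescue had only 1 IgG library. The part of IgG signal in these CTCF summits was not tested.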

How the results depend on the processing

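The number of sites was 2088 with −log10 q of at least 10 in all lists, 1766 with at least 5 in deletion and rescue and the WT list whole, 2428 with equal list lengths, and 2392 with equal lengths and 1000 bp, a setting chosen after seeing the data, against 4545. The share of deletion summits was 16.7% at 100 bp, 17.1% with values of at least 10 and 12.7% with equal lengths. By construction, the cut at 10 in all lists also removes WT summits below 10, so it admits summits with a weaker WT summit nearby. Only 212 of the 4545 sites had both values at least 10. At 100 bp the median value was 9.53 in deletion and 6.08 in rescue, the median distance to the rescue summit 37.5 bp, and 0 chromosomes and 0 gene lists had an interval off the overall share, against 3 and 3. By construction, 100 bp also admits summits with a WT summit farther than 100 bp away. At 100 bp the sites minus deletion-only summits came to -1.79 points inside a gene and -1.28 points inside a protein-coding gene. Weighting by value gave 0.934 points inside a gene against deletion-only summits, and 1.00 point over 50 kb from a protein-coding gene against summits of all 3 lists. For the motif, sites minus summits of all 3 lists came to -0.822 points within 50 bp, -4.22 at 100 bp matching and -6.77 weighted by value, and sites minus deletion-only summits to 10.8 points at 100 bp and 10.9 over the whole window (this window was chosen after seeing the data). The cause was not tested. The differences near gene ends kept their sign and an interval off 0 under each alternative run. No paired analysis was possible because the summit files carry no replicate numbers, and for the same reason no replicate could be left out.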

Other observations

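The sites were densest on chromosome 1 between 156 and 157 Mb, with 15 in 1 Mb beside 53 deletion, 42 rescue and 34 WT summits. Their genes there included LMNA, which encodes the A-type nuclear lamins, CRABP2, a retinoic acid carrier, and MEF2D, a transcription factor. On chromosome 17 between 40 and 41 Mb, 10 sites lay beside 39 deletion, 33 rescue and 22 WT summits, at the nuclear receptor genes RARA and THRA, at SMARCE1, a subunit of the SWI/SNF remodeller, and at IGFBP4 among others. These windows were taken after their values were seen and are also rich in summits of every list.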
